A study of Bos taurus with 6 samples.

Results

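The 7 genes described here encode the phosphofructokinase (PFK) isozymes (PFKL, PFKM and PFKP) and the PFKFB enzymes that regulate them (PFKFB1, PFKFB2, PFKFB3 and PFKFB4). They were chosen by name from the 19163 genes of the count table, and each was found once by its Entrez identifier in the counts and once by its symbol in the TPM table. The Entrez identifiers are 508683 (PFKL), 506544 (PFKM), 507119 (PFKP), 282304 (PFKFB1), 287019 (PFKFB2), 407183 (PFKFB3) and 534928 (PFKFB4). PFK adds a second phosphate to fructose 6-phosphate, which commits the sugar to glycolysis. PFKFB enzymes carry a kinase and a phosphatase in one protein, and they make and remove a fructose bisphosphate that is a strong activator of PFK. Pluripotent stem cells are known for a high rate of glycolysis, and PFK is one of the steps at which that rate is set.

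The cells were F7, 1 line of bovine embryonic stem cells (bESCs) derived from in vitro fertilized Holstein Friesian embryos. Both groups were at 15 passages and in a medium with fibroblast growth factor and the WNT pathway inhibitor IWR1. MC-F7 (called 1M-F7 in the labels) was grown on mouse embryonic fibroblasts (MEFs) that mitomycin C had kept from dividing but left alive. MT-F7 was grown on MEFs fixed with methanol, which are dead. Each group had 3 libraries. The medium was refreshed daily for MC-F7 and every other day for MT-F7, so the feeder and the feeding schedule cannot be told apart. Before RNA was taken, the dissociated cells were left on gelatin so that feeder cells could settle out. Whether the 3 libraries of a group are separate cultures is not stated, and the methods describe replicates in general as technical. The p-values then measure only the spread between these libraries, which may be technical.

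The libraries held 21958386 to 24933430 reads assigned to genes. Of 5 pluripotency markers fixed for checking the cell type, SOX2 was not analysed here. POU5F1 was at 1196 ± 329.5 CPM (counts per 1000000 reads assigned to genes, with library sizes scaled by TMM) in MC-F7, against 522 ± 35.6 CPM in MT-F7 (SD, n = 3), a log2 fold change of -1.19. NANOG was at 43.5 ± 9.03 and 10.7 ± 1.23 CPM (log2 fold change -2.02), LIN28A at 27.4 ± 3.90 and 15.2 ± 5.97 CPM (-0.85) and SALL4 at 37.3 ± 7.94 and 47.0 ± 12.1 CPM (0.33). POU5F1, NANOG and LIN28A passed the test as lower in MT-F7, in the same direction as PFKL and PFKP below, and SALL4 did not pass (adjusted p 0.29). LIN28A did not pass without replicate 2 of MC-F7 (adjusted p 0.065) or replicate 1 (0.093) or replicate 2 (0.087) of MT-F7. All 12 fibroblast markers were in the count table, and 11 of them could be tested. The summed level of the list was 223 to 299 CPM in MC-F7, against 339 to 392 CPM in MT-F7. Most of this sum was COL1A1, at a mean of 205 CPM in MC-F7, against 268 CPM in MT-F7, which did not pass (adjusted p 0.094). COL3A1, PDGFRB and POSTN passed the test as higher and TWIST2 as lower in MT-F7, and FAP, with 0, 9 and 7 counts in MC-F7 and 0 in every MT-F7 library, was too low for the test. Of the 7 that did not pass, PRRX1 (log2 fold change -1.61, adjusted p 0.054) and THY1 (-0.32) were lower and the others higher in MT-F7. PDGFRB did not pass without replicate 1 (adjusted p 0.052) or replicate 2 (0.065) of MC-F7 or replicate 3 of MT-F7 (0.058), and POSTN did not pass without replicate 2 of MT-F7 (0.059). Reads of mouse feeder cells that align to the bovine genome cannot be separated in a table of counts. The study reported a higher alignment rate for MT-F7 than for MC-F7, and it proposes that fixed feeders left less feeder contamination. Whether such reads differ between the groups was not tested here. The study also reported higher transcript levels of extracellular matrix genes in MT-F7, and it proposes that some MT-F7 cells became feeder-like. The part of the pluripotency and fibroblast markers in the results below was not tested either.

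PFKL and PFKP fell in MT-F7, whereas the level of PFKM differed by less than the spread between libraries. After Benjamini-Hochberg adjustment of edgeR's quasi-likelihood test over 13001 tested genes, 2 of the 7 members passed at an adjusted p under 0.05. Both were lower in MT-F7, and no member that was higher passed. Over all tested genes 23.2% passed, with 11.3% lower and 11.9% higher in MT-F7. PFKFB1 was too low for the test, so 6 members were tested. In 4 of these 6 the CPM values of the groups did not overlap, 3 lower and 1 higher in MT-F7. Among all tested genes that was the case for 40%, with 20.1% lower and 19.9% higher. In bulk RNA, fewer cells expressing a gene and less RNA per cell cannot be told apart.

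PFKL, the liver-type isozyme, was the most abundant member in every library. MC-F7 gave 15928, 14418 and 10976 counts, or 705, 598 and 513 CPM. MT-F7 gave 3958, 4658 and 4381 counts, or 158, 180 and 186 CPM. Every MT-F7 library was thus far below every MC-F7 library, and the spread was wider in MC-F7, where replicate 1 was highest and replicate 3 lowest. The mean was 605 ± 95.9 CPM in MC-F7, against 175 ± 14.9 CPM in MT-F7 (SD, n = 3), with a log2 fold change of -1.79 (SE 0.169, adjusted p 1.12e-05). The 95% interval of the change ran from -2.16 to -1.43, and PFKL was 3.47-fold lower. Of the 13001 tested genes, 126 had a p-value as small as that of PFKL or smaller, PFKL included.

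PFKP, the platelet-type isozyme, which many proliferating cells express, was the second most abundant. It was at 148, 141 and 164 CPM in MC-F7, against 71.5, 59.0 and 76.3 CPM in MT-F7. The libraries of each group lay close together and the groups did not overlap. The log2 fold change was -1.13 (SE 0.154, adjusted p 2.12e-04), a 2.19-fold lower level, and its 95% interval ran from -1.47 to -0.80.

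PFKM, the muscle-type isozyme, was at 27.5, 30.3 and 39.4 CPM in MC-F7, against 31.8, 29.2 and 36.0 CPM in MT-F7. The groups overlapped fully, and replicate 3 was the highest library in both. Its log2 fold change was -0.0028 (SE 0.174, adjusted p 0.99), and with library size as the only scaling it was 0.011. The 95% interval ran from -0.38 to 0.37, and the changes of PFKL and PFKP both lay outside it.

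**Figure D1:**
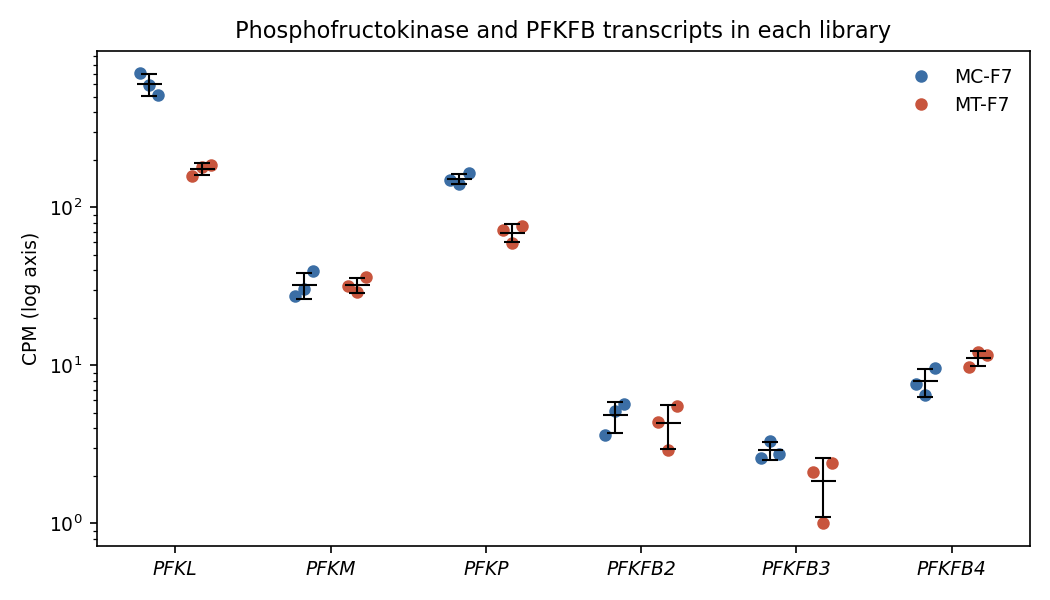
Level of each member in each library, as CPM on a log axis. Points are libraries (blue MC-F7, red MT-F7), and the black marks are the mean and SD of 3 libraries. PFKFB1 is left out because it had 0 counts in several libraries. PFKL and PFKP lie lower in all 3 MT-F7 libraries, PFKM overlaps, and PFKFB4 lies slightly higher in MT-F7.

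The 4 PFKFB genes were expressed far below the PFK isozymes, and none of the 3 tested passed in edgeR or in DESeq2. In edgeR 1 of them, PFKFB4, had an unadjusted p under 0.05 (0.030). PFKFB4 was the most abundant of them. It is one of the PFKFB genes known to respond to low oxygen. It had 173, 157 and 207 counts in MC-F7 (7.65, 6.51 and 9.68 CPM) and 246, 314 and 274 counts in MT-F7 (9.80, 12.1 and 11.6 CPM). All MT-F7 libraries were above all MC-F7 libraries, but MC-F7 replicate 3 and MT-F7 replicate 1 nearly touched. The log2 fold change was 0.49 (SE 0.202, adjusted p 0.097), and the 95% interval ran from 0.057 to 0.93. Without replicate 3 of MC-F7 the log2 fold change was 0.66 and the adjusted p was 0.039.

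PFKFB3, whose kinase activity far exceeds its phosphatase activity, had 59, 80 and 59 counts in MC-F7, against 53, 26 and 57 counts in MT-F7. Its CPM values were 2.61, 3.32 and 2.76 in MC-F7, against 2.11, 1.00 and 2.42 in MT-F7. The groups did not overlap, but 2 of the MT-F7 libraries were close to MC-F7 and replicate 2 stood apart below them. Its log2 fold change was -0.65 (SE 0.344, adjusted p 0.19), and without replicate 2 of MT-F7 it was -0.35 (adjusted p 0.51). The 95% interval ran from -1.40 to 0.092. In RefSeq's annotation of the bovine assembly ARS-UCD2.0, the span of PFKFB3 overlaps PRKCQ and 1 long noncoding RNA gene, and whether the counting used strand is not given in the sources used here, so part of these few counts is uncertain.

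PFKFB2, known as the heart-type enzyme, had 82, 124 and 122 counts in MC-F7, against 110, 76 and 131 counts in MT-F7. The groups overlapped, with 4.82 ± 1.07 CPM in MC-F7, against 4.29 ± 1.32 CPM in MT-F7 (SD, n = 3). The log2 fold change was -0.17 (SE 0.282, adjusted p 0.71), with a 95% interval from -0.78 to 0.44. PFKFB1, the enzyme known from liver and muscle, had 0, 1 and 0 counts in MC-F7, against 0, 3 and 3 counts in MT-F7. With 3 counts taken as the smallest detectable amount (0.120 to 0.137 CPM before TMM scaling), no difference was detectable at this depth. Such limits cover counting error only.

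Levels of different genes can be compared only per length. For this the deposited TPM values were rescaled to 1000000 in each library. On that scale the order was the same in both groups. In MC-F7 the mean TPM was 275 for PFKL, 50.6 for PFKP, 13.6 for PFKM, 2.97 for PFKFB4, 1.43 for PFKFB2, 0.784 for PFKFB3 and 0.00805 for PFKFB1. In MT-F7 it was 83.7 for PFKL, 24.4 for PFKP, 14.3 for PFKM, 4.45 for PFKFB4, 1.34 for PFKFB2, 0.521 for PFKFB3 and 0.0476 for PFKFB1. Neighbors in this order did not overlap within either group. PFKL had a higher mean TPM than 98.5% of the 21357 genes of the table in MC-F7 and than 94.6% in MT-F7, and for PFKM these shares were 76.3% and 76.5%.

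PFKL held a smaller part of total PFK in every MT-F7 library than in any MC-F7 library. Its share of total PFK, per length, was 83.9%, 81.8% and 76.5% in the MC-F7 libraries and 65.7%, 71.8% and 67.4% in the MT-F7 libraries. The mean share was 80.8% ± 3.84 in MC-F7, against 68.3% ± 3.15 in MT-F7 (SD, n = 3), so PFKL remained the main isozyme in both groups. PFKM held 3.03%, 3.85% and 5.44% in MC-F7, against 12.3%, 10.8% and 12.1% in MT-F7, a mean of 4.11% ± 1.23 against 11.7% ± 0.821. The shares of PFKL and PFKM did not overlap between the groups. PFKP held 13.0%, 14.3% and 18.1% in MC-F7, against 22.02%, 17.4% and 20.4% in MT-F7, and here replicate 3 of MC-F7 lay above replicate 2 of MT-F7. By an exact permutation test (two-sided), p was 0.1 for PFKL and for PFKM and 0.2 for PFKP. Adjusted over the 3 shares, these were 0.15, 0.15 and 0.2. A p of 0.1 is the smallest that 3 libraries against 3 can give, so no share could pass 0.05. Replicate 3 of MC-F7 was the library of its group nearest to MT-F7 in all 3 shares.

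**Figure D2:**
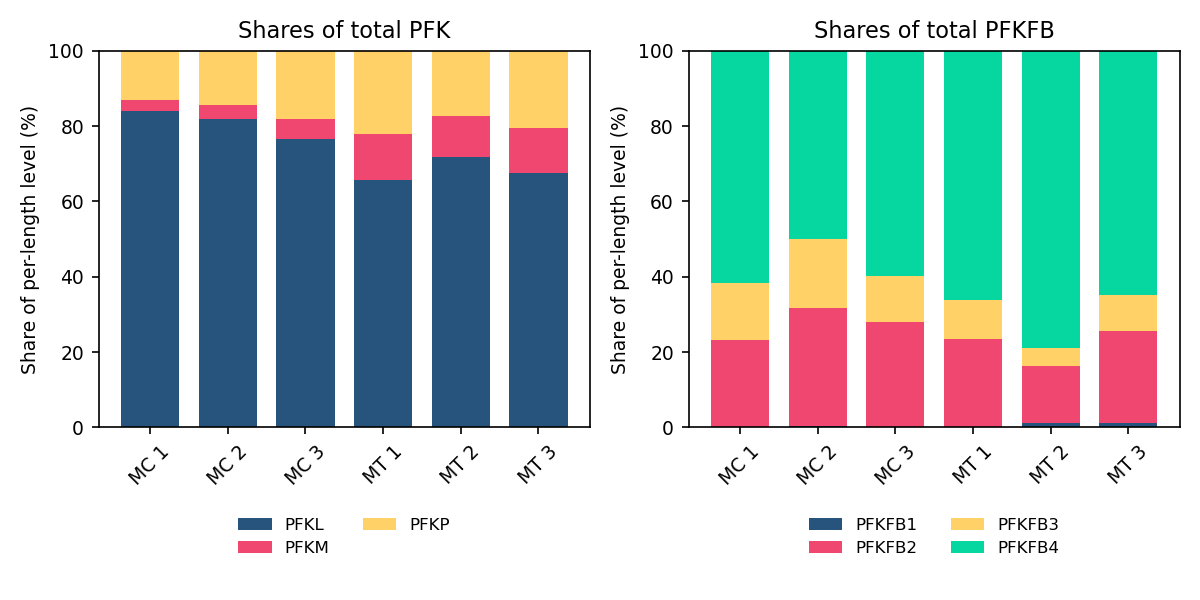
Share of each isozyme in total PFK (left) and of each enzyme in total PFKFB (right), in percent of the summed per-length level, with 1 bar per library. PFKL makes up 76.5% to 83.9% of PFK in MC-F7, against 65.7% to 71.8% in MT-F7, and PFKFB4 makes up 50.01% to 61.7% of PFKFB in MC-F7, against 64.8% to 79.1% in MT-F7.

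Summed over the 3 isozymes, PFK was at 378, 346 and 294 TPM in MC-F7, against 116, 125 and 126 TPM in MT-F7. The mean was 339 ± 42.4 TPM in MC-F7, against 122 ± 5.25 TPM in MT-F7 (SD, n = 3), or 2.77-fold lower. PFKL accounted for 88.3% of this difference and PFKP for 12.1%. The summed PFKFB level was 4.62, 5.10 and 5.87 TPM in MC-F7, against 5.94, 6.35 and 6.78 TPM in MT-F7, where replicate 3 of MC-F7 nearly reached replicate 1 of MT-F7. With TMM scaling of the TPM values the groups overlapped. PFK transcripts were 50.1 to 81.8 times as abundant as PFKFB transcripts in the MC-F7 libraries and 18.5 to 19.7 times as abundant in the MT-F7 libraries.

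Within PFKFB, PFKFB4 held 61.7%, 50.01% and 59.9% in MC-F7, against 66.3%, 79.1% and 64.8% in MT-F7. PFKFB3 held 15.1%, 18.3% and 12.3% in MC-F7, against 10.3%, 4.70% and 9.68% in MT-F7. Neither overlapped between the groups, and in both replicate 2 of MT-F7 was farthest from MC-F7. PFKFB2 held 23.1% to 31.2% in MC-F7, against 15.1% to 24.5% in MT-F7, with overlap. The exact permutation p was 0.1 for PFKFB4 and PFKFB3, 0.3 for PFKFB2 and 0.4 for PFKFB1, and adjusted over the 4 shares it was 0.2, 0.2, 0.4 and 0.4.

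Whether members changed by different amounts was asked with ratios inside each library, which need no library size. The ratio of PFKM to PFKL was 0.0361, 0.0470 and 0.0711 in MC-F7, against 0.187, 0.150 and 0.179 in MT-F7. The difference was 1.79 on the log2 scale (SE 0.301), or 3.47-fold higher in MT-F7, and the groups did not overlap. PFKP to PFKL was 0.155, 0.175 and 0.236 in MC-F7, against 0.335, 0.242 and 0.303 in MT-F7, a difference of 0.65 (SE 0.227) in log2. Here MC-F7 replicate 3 and MT-F7 replicate 2 almost met. PFKM to PFKP was 0.233 to 0.301 in MC-F7, against 0.558 to 0.619 in MT-F7, with a log2 difference of 1.15 (SE 0.116).

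Among the regulators, PFKFB4 to PFKFB3 was 4.08, 2.73 and 4.89 in MC-F7, against 6.46, 16.8 and 6.69 in MT-F7. The groups did not overlap, although replicate 2 of MT-F7 stood far above the other libraries. PFKFB2 to PFKFB3 was 1.53, 1.71 and 2.28 in MC-F7, against 2.28, 3.22 and 2.53 in MT-F7, so that the highest MC-F7 and the lowest MT-F7 library were nearly equal. PFKFB2 to PFKFB4 overlapped between the groups. In the exact permutation test p was 0.1 for 5 of the 6 pairs and 0.2 for PFKFB2 to PFKFB4, and adjusted over the 6 pairs it was 0.12 and 0.2, so none could pass.

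**Figure D3:**
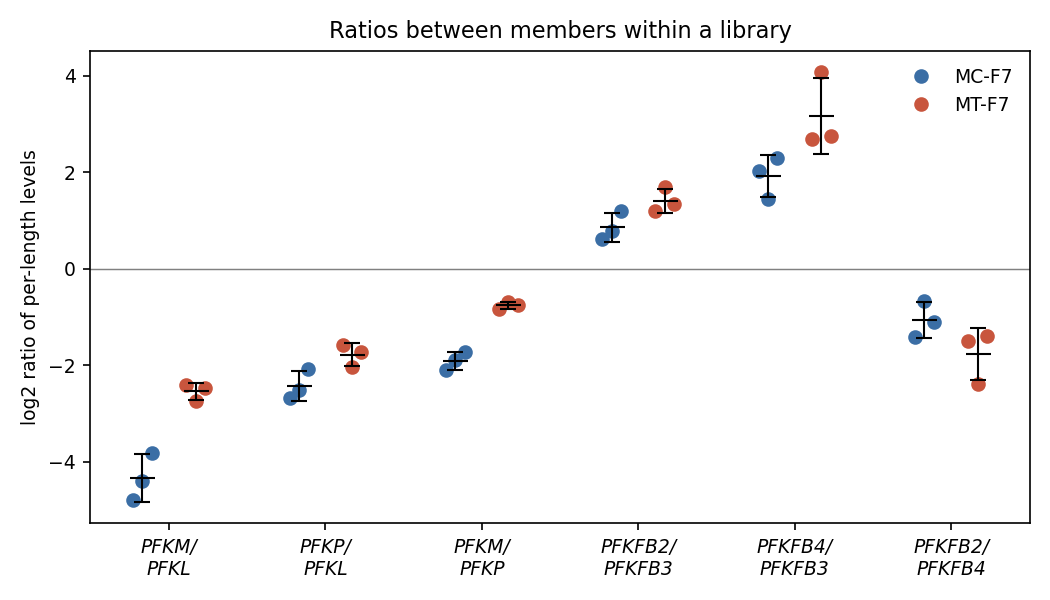
Ratio between members within each library, on a log2 scale of per-length levels. Points are libraries (blue MC-F7, red MT-F7), and black marks are the mean and SD of 3 libraries. The ratios of PFKM to PFKL and of PFKM to PFKP lie higher in MT-F7 with a clear gap between the groups, and PFKFB2 to PFKFB4 overlaps.

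PFK sits between glucose phosphorylation and the later steps of glycolysis, and most of the abundant enzymes on both sides of it were also lower in MT-F7. Of 16 other glycolysis genes 15 could be tested. Of these, 10 passed as lower in MT-F7, none as higher and 5 did not pass, where 11.3% of all tested genes passed as lower. The study named some of these genes, as well as PFKL and PFKP, for their decrease in the same libraries. The count is therefore not independent evidence of its direction. The median log2 fold change of the tested ones was -1.02, and that of all tested genes was -0.0026.

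Before the PFK step, HK2 and HK1, which phosphorylate glucose, had log2 fold changes of -2.38 (SE 0.323) and -0.89 (SE 0.171). GPI, which makes the substrate of PFK, had one of -1.18 (SE 0.189). PFKL, at -1.79, thus lay between HK2 and GPI. After the PFK step, ALDOA, the main aldolase, fell from 2668 ± 387.4 to 939 ± 85.2 CPM, a log2 fold change of -1.51. ALDOC fell by 1.12, GAPDH by 1.24, PGK1 by 2.06, ENO1 by 1.56 and PKM by 0.63 on the log2 scale, and PGAM1 from 668 to 329 CPM. PKM (adjusted p 0.018) kept its call in 3 of the 6 fits with 1 library removed. Without replicate 2 of MC-F7 its adjusted p was 0.087, without replicate 1 of MT-F7 it was 0.051 and without replicate 2 of MT-F7 it was 0.062.

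The other tested glycolysis genes did not pass. HK3, PGAM2, ENO2 and PKLR had log2 fold changes between -0.22 and 0.15. ENO3, the muscle enolase, was at 28.2 ± 3.93 CPM in MC-F7, against 39.4 ± 8.84 CPM in MT-F7 (SD, n = 3), with a log2 fold change of 0.48 (SE 0.188, adjusted p 0.083). TPI1, an enzyme that nearly every cell uses, had only 3 to 9 counts in each library and was too low to be tested, so its row was not read as its expression.

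**Figure D4:**
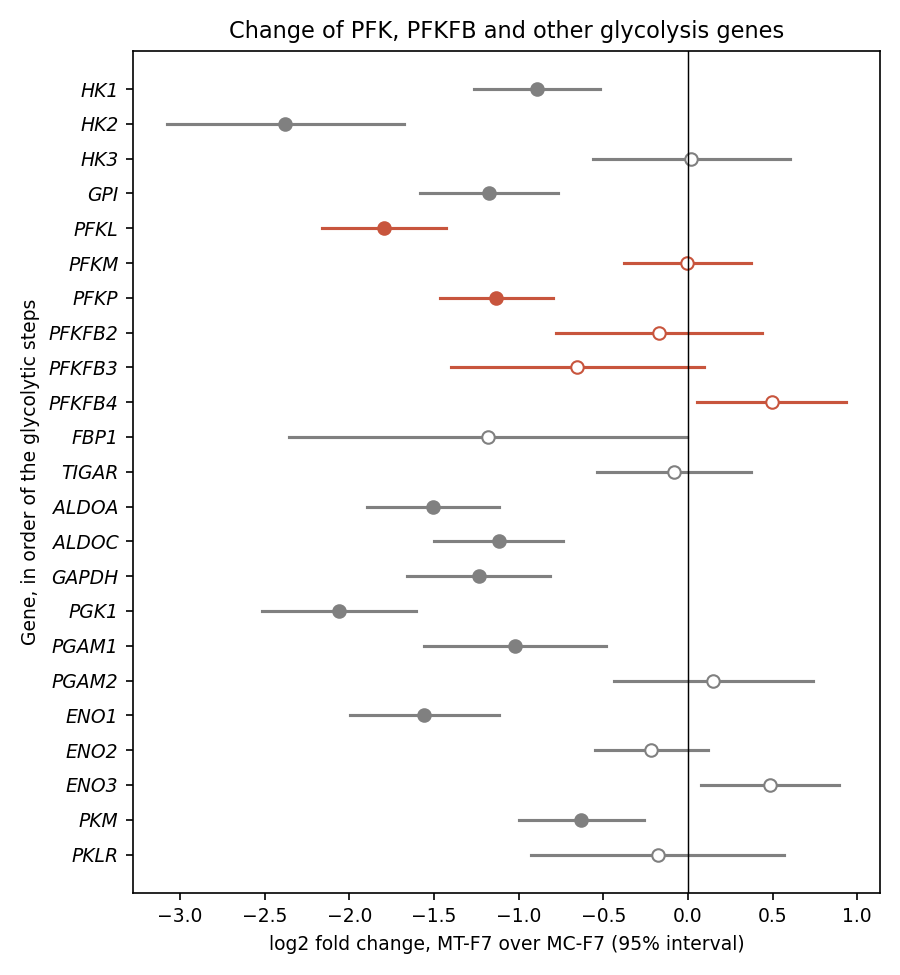
Log2 fold change of MT-F7 over MC-F7 for members (red) and other glycolysis genes and opposing phosphatases (gray), from top to bottom in the order of the glycolytic steps. Lines are 95% intervals of the edgeR fit, and filled points passed at an adjusted p under 0.05. PFKL and PFKP lie among the lowered enzymes, and PFKM lies near 0 beside HK3, PGAM2 and ENO2.

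The enzymes that work against PFK or PFKFB did not pass. FBP1, the phosphatase that reverses the PFK reaction, was at 1.04 ± 0.186 CPM in MC-F7, against 0.454 ± 0.366 CPM in MT-F7 (SD, n = 3), with a log2 fold change of -1.18 and a wide 95% interval from -2.35 to -0.0069 (adjusted p 0.14). Without replicate 1 of MT-F7 the log2 fold change was -2.08 (adjusted p 0.032). FBP2 had 0 counts in all libraries. TIGAR, which removes the fructose bisphosphate that PFKFB makes, was at 6.52 ± 0.877 and 6.16 ± 0.796 CPM, with a log2 fold change of -0.082 (adjusted p 0.82). With limma on log2(TPM + 1) of the deposited values, which were not rescaled, the log2 fold change was 0.027.

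Of 11 genes for known regulators of PFK or PFKFB, all were tested, and 2 passed as lower and none as higher in MT-F7, where 11.3% and 11.9% of all tested genes did so. EPAS1, a hypoxia-inducible factor subunit, had a log2 fold change of -3.08 (SE 0.459, adjusted p 4.09e-04), from 1.96 ± 0.613 to 0.228 ± 0.0138 CPM. Its counts were 46, 61 and 28 for MC-F7 but only 5 or 6 in each MT-F7 library. TRIM21, a ubiquitin ligase reported to act on PFKP, fell from 9.71 ± 1.04 to 4.24 ± 0.384 CPM, a log2 fold change of -1.20 (SE 0.201, adjusted p 9.85e-04). HIF1A, through which low oxygen raises several PFK and PFKFB genes, was far more abundant than EPAS1, at 145 ± 22.7 CPM in MC-F7, against 134 ± 13.3 CPM in MT-F7. Its log2 fold change was -0.11 (SE 0.160, adjusted p 0.65). With limma on log2(TPM + 1) of the deposited values, which were not rescaled, the log2 fold change was 0.020. The study described HIF1A as lower in MT-F7, whereas here HIF1A passed in none of the 16 alternative fits. The kinase genes PRKACA and AKT1, whose products phosphorylate PFKFB2, had positive changes of 0.44 (adjusted p 0.056) and 0.40 (adjusted p 0.072) in log2, with all MT-F7 libraries above all MC-F7 libraries. PRKACA passed without replicate 3 of MT-F7 (adjusted p 0.022) and by DESeq2 (adjusted p 0.033).

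The tested genes whose profile over the 6 libraries was nearest to that of PFKL were CREB3L1, a transcription factor of the endoplasmic reticulum, PLIN5, a lipid droplet protein, and CBR3, a carbonyl reductase. Likeness was measured as the root mean square difference of centered log2 CPM, which was 0.120 for CREB3L1, 0.125 for PLIN5 and 0.132 for CBR3. Nearest to PFKP were ADAMTSL5, CAPN5 and WNK4, with differences of 0.0496, 0.0627 and 0.0695. None of these 6 genes belongs to the glycolysis list. They were selected by their values, so their changes were not tested further.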

How the data were processed

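RNA-seq libraries of MC-F7 and MT-F7, 3 of each, were used. After read filtering, the authors used HISAT2 2.0.5 for alignment to an Ensembl Bos taurus genome and featureCounts 1.5.0-p3 for counting, and deposited raw counts by Entrez gene (19163 genes). The genome build is not given in the sources used here. The authors also deposited values they call TPM (21653 lines, 21357 Ensembl genes used). Where every library had 50 counts or more, the ratio of TPM to count was the same in all libraries (within 0.1%) for 9681 of 9682 genes. Library size is therefore still in them. For the TPM levels and sums in the text, each library was rescaled to 1000000. The deposited values summed to 154763 to 164394 per library. The limma fits used them without rescaling, so their added constants and their cut at 1 are on that scale. Symbols were matched with RefSeq's gene table of ARS-UCD2.0, and 89 identifiers had none.

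Counts were filtered with filterByExpr (minimum count 10, minimum total count 15), normalized by TMM and tested with the quasi-likelihood test of edgeR 4.0.16 in R 4.3.3. Library depth was 21958386 to 24933430 counts. Shares and ratios were compared by exact permutation tests (scipy 1.17.1). The alternatives used limma 3.58.1 and DESeq2 1.42.0 among others. The fitting step was tested on simulated data. The text names the members, genes of the fixed lists, and the 3 genes nearest to each member that passed (mean CPM of 1 or more). The members and lists were chosen with earlier results of these data known, and 2 further genes first placed on the glycolysis list are not reported here.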

Additional observations from a re-analysis of the deposited data

How the results depend on the processing

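PFKL and PFKP passed in all 16 alternative fits, with log2 fold changes from -1.90 to -1.59 and from -1.22 to -0.85, and PFKM, PFKFB2 and PFKFB3 passed in none. The number of members that passed was 2 or 3. PFKFB4 passed in 2 of 15 fits, without replicate 3 of MC-F7 and under a replicate block (log2 fold change 0.50, adjusted p = 0.034). The correlation of same-numbered deviations was 0.134, 0.0445 and 0.417 for replicates 1, 2 and 3. This does not settle whether replicate numbers pair the samples, and the main fit used no replicate block. With the replicate block 4674 genes passed in place of 3016, and without 1 library it was between 1914 and 3093. With limma on the 7397 genes of mean deposited TPM 1 or more, before rescaling, it was 1395. The block also brought ENO3 (adjusted p = 0.013), PRKACA (0.0095) and AKT1 (0.018) past the threshold. So did limma on log2(TPM + 1) of the genes of mean deposited TPM 1 or more (0.040, 0.049 and 0.043). PRKACA also passed in edgeR's likelihood ratio test (0.039). With limma on log2(TPM + 1) of the deposited values, HK1 (0.064), POU5F1 (0.053), LIN28A (0.086) and POSTN (0.073) did not pass. On log2(TPM + 0.1) of these values, HK1 (0.055), LIN28A (0.076) and POSTN (0.067) did not pass either. Library size was still in the values of all limma fits. PKM (0.12 to 0.14) and PGAM1 (0.081 to 0.16) passed in none of the 3 limma fits.

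Genes near 0 changed direction. PFKM was at 0.011 with library size only, 0.0022 with all genes of at least 1 count, 0.0078 with the replicate block, 0.094 with limma on log2(TPM + 1), with or without the filter on TPM, 0.13 on log2(TPM + 0.1), and -0.11 to 0.16 without 1 library. Without 1 library, PFKFB2 ranged from -0.41 to 0.046, HK3 from -0.13 to 0.18, PGAM2 from -0.041 to 0.36, TIGAR from -0.20 to 0.022 and HIF1A from -0.21 to 0.017. On log2(TPM + 1) of the deposited values, with library size still in them, TIGAR was at 0.027 and HIF1A at 0.020. On log2(TPM + 0.1) they were at 0.045 and 0.022. On rescaled TPM the mean of HIF1A was 46.8 in MC-F7, against 45.9 in MT-F7, and that of TIGAR was 6.68 and 6.69. The cause of these changes of direction was not tested. Shares, ratios and sums kept their direction under every alternative run, including raw counts without length and, chosen after seeing the data, other scalings of the TPM sums. Low counts limit the precision for PFKFB1, PFKFB3, FBP1 and EPAS1, among others.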
